A study of Homo sapiens with 8 samples.

Results

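The 38 genes described here encode enzymes and transporters of glycolysis (23 genes), enzymes of the pentose phosphate pathway (3 genes), and targets and regulators of the hypoxia response (12 genes). They were picked by symbol from the 50006 gene entries of the deposited count files, in BEAS-2B cells exposed for 4 h to fibrinogen, to its αC domain, to a preparation named FCP, or to buffer. Most glycolysis genes were lower in each of the 3 exposed groups than in buffer, and so were the pentose phosphate genes *PGD* and *TALDO1*. The fall of *TKT* held in FBG and depended on the processing in FCP and aC. The hypoxia genes did not move together: *NDRG1* and *VEGFA* were several-fold higher and *ADM* several-fold lower in 2 of the exposed groups, which also differ from the other 2 groups in markers of cell identity.

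Glycolysis splits glucose into pyruvate, which is reduced to lactate and exported or oxidised in mitochondria. The pentose phosphate pathway branches off at glucose 6-phosphate and yields NADPH and ribose phosphate, and its non-oxidative enzymes return sugar phosphates to glycolysis. When oxygen is low, prolyl hydroxylases no longer mark the α subunit of hypoxia-inducible factor (HIF) for destruction, and HIF raises transcription of many glycolytic genes, of *VEGFA* and of other targets. HIF-1α is controlled largely at the protein level, so the level of its messenger RNA is not a measure of HIF activity.

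The groups were FBG (fibrinogen), FCP (Der m 1-derived FCPs in the labels, titled M1-FCP, an abbreviation not spelled out there; Der m 1 is a mite allergen), aC (fibrinogen's αC domain, whose preparation the labels do not describe) and Mock (PBS). The 3 preparations were given at 4 ng/µl, and each group had 2 libraries. BEAS-2B is an immortalised line from human bronchial epithelium, of genotype WT by the labels and grown in serum-free LHC-9 medium in every group. The submitters' stated interest was in adhesion, and the genes here lie outside it.

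Total counts were 15137196 to 22258791 per library. The libraries of a pair varied 1.33 to 1.39 times as much as counting alone allows, over genes without an alternate-locus copy, and the titles call them biological replicates without saying whether the cultures were separate. The p-values therefore rest on how far these libraries differ, and that spread may be technical. The FCP and aC libraries stood apart from the FBG and Mock libraries in identity markers. The summed level of 12 epithelial markers was 5483 to 5544 CPM (read counts scaled to a common library total, after TMM scaling between libraries) in FCP and 5624 to 5695 in aC, against 1159 to 1179 in FBG and 1313 to 1318 in Mock. That of 10 mesenchymal markers was 1139 to 1145 in FCP and 1093 to 1095 in aC, against 3249 to 3258 in FBG and 4660 to 4698 in Mock. The basal keratin gene *KRT5* ran from 1571 to 1636 CPM in FCP and aC, against 6.94 and 7.61 in FBG and 2.27 and 1.8 in Mock, and *TP63* from 79.1 to 110 in FCP and aC and from 0.0666 to 0.202 in FBG and Mock, so that this defining factor of basal epithelium was near 0 in FBG and Mock. *COL3A1* was at 0 in all 8 libraries. Of 8 blood and endothelial markers 4 had no count in both libraries of each group, and their sum was at most 33.1 CPM. Chromosome 9 genes had a median log2 fold change of 0.58 in FCP against Mock and 0.59 in aC against Mock, against 0.05 and 0.06 for all autosomes. FBG differed from Mock in these markers too (edgeR, adjusted p under 0.05). Of 9 mesenchymal markers tested 8 were lower and 1 higher, and of 12 epithelial markers 4 were higher and 3 lower. The shares over all tested genes were 26.3% lower and 24.2% higher. A response to FBG, FCP or aC and a difference between cell populations cannot be told apart in the comparisons with Mock. In bulk RNA fewer cells of a type and less RNA per cell cannot be told apart either.

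Of the 38 genes 35 passed the filter on low counts and were tested. The lactate dehydrogenase gene *LDHA* had 0 to 2 counts per library and 12 to 64 at its entry on an alternate locus, and the lactate transporter gene *SLC16A1* 0 to 7 and 4 to 32. Read pairs that match both copies can go uncounted, so these counts do not measure either gene, and no level or change of *LDHA* or *SLC16A1* is given. *ANKRD37*, an ankyrin repeat gene, had 1 to 6 counts per library and shared 76.7% of its exon bases with other genes. Among the tested genes, counts of 8 are uncertain. *GPI* has entries on alternate loci, and 7 share 10.5% to 65.1% of their exon bases with another gene, where reads can be lost or gained: *ALDOA* (65.1%), *ENO2* (42.2%), *HIF1A* (31.9%, with antisense genes, in counts made without strand), *PFKFB4* (24.3%), *BNIP3* (16.7%), *SLC16A3* (10.8%) and *P4HA2* (10.5%).

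Set per kilobase of exon, the levels of the 38 genes spanned the range of a housekeeping pathway down to single counts. *GAPDH*, the glyceraldehyde phosphate dehydrogenase gene, was highest in every group, with 1776 and 1794 CPM per kilobase in FBG, 1474 and 1470 in FCP, 1458 and 1462 in aC, and 2168 and 2191 in Mock. The enolase gene *ENO1* was the next highest in every group, at 713 and 713 in FBG, 673 and 669 in FCP, 654 and 647 in aC and 1157 and 1146 in Mock. In Mock *TPI1*, *LDHB*, *PKM*, *TKT*, *PGAM1*, *TALDO1* and *PGD* came next. The highest of the hypoxia genes was *HIF1A* in every group, at rank 10 in FBG, 8 in FCP, 8 in aC and 12 in Mock. The glycolysis genes took 1.06% and 1.07% of all counts in FBG, 1.07% and 1.07% in FCP, 1.07% and 1.06% in aC, and 1.35% and 1.35% in Mock, and no exposed library reached the share of a Mock library.

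Fibrinogen was followed by lower levels of most glycolysis and pentose phosphate genes. Of the 35 tested genes 27 fell and 3 rose in FBG (edgeR, adjusted p under 0.05), against 26.3% of all 16307 tested genes called lower and 24.2% called higher, or 50.4% in either direction. The median log2 fold change was -0.48 over 21 glycolysis genes (18 lower, 0 higher), -0.59 over 3 pentose phosphate genes (3 lower) and -0.16 over 11 hypoxia genes (6 lower, 3 higher), against 0.02 over all tested genes. The changes were of moderate size: *EGLN3* alone was called with a change of at least 2-fold. Among the 27 genes with certain counting 22 were lower and 2 higher. Fold changes here followed the GC content of transcripts (Spearman correlation of -0.41 over 13569 genes, which are not independent replicates), and the 23 glycolysis genes have a median GC content of 53.3%, against 48% for all tested genes with a value. With trends on GC content and length removed, 18 of the 21 glycolysis genes were called lower, with a median of -0.33, and the hypoxia median was -0.02. In that fit 3410 of all 13569 tested genes were lower and 3346 higher.

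In FCP the glycolysis genes were again mostly lower and the hypoxia genes divided. In FCP 20 genes fell and 7 rose of 35 when set against Mock, against 36.1% of all tested genes called lower and 37.3% called higher (73.4% in either direction). Among 21 glycolysis genes 13 were lower and 2 higher (median -0.56), all 3 pentose phosphate genes were lower (median -1.15), and of 11 hypoxia genes 4 were lower and 5 higher (median -0.14), beside a median of 0.06 over all tested genes. Of the genes called, 2 were at least 2-fold higher, *NDRG1* and *VEGFA*, and 6 at least 2-fold lower: *ADM*, *ENO2*, *PGD*, *TALDO1*, *ALDOC* and *TPI1*. With GC and length trends removed 15 glycolysis genes were lower and 5 higher (median -0.32), 2 pentose phosphate genes were lower and *TKT* higher (median -0.67), and the hypoxia median was 0.06; *PGD* (-0.84), *TALDO1* (-0.67), *ALDOC* (-0.62) and *TPI1* (-0.59) were then lower by less than 2-fold and *BNIP3L* (-1.05) by more. Scaled by library size only, which moved the median of all genes to 0.28, the split was 18 lower and 11 higher. Of all 16307 tested genes 4493 were then lower and 7679 higher. With the GC and length trends removed 5128 of all 13569 tested genes were lower and 5130 higher. As fitted, 16 were lower and 4 higher of the 27 genes with certain counting.

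aC against Mock gave 22 lower and 7 higher of 35, against 36.7% and 38% of all tested genes (74.7% in either direction). The split was 15 lower and 3 higher among glycolysis genes (median -0.5), 3 lower among pentose phosphate genes (median -1.18), and 4 lower and 4 higher among hypoxia genes (median 0.06, which equals the median of all tested genes to 2 decimals). The genes changed at least 2-fold were again *NDRG1* and *VEGFA* upward and *ADM*, *ENO2*, *PGD*, *TALDO1*, *ALDOC* and *TPI1* downward. With GC and length trends removed *PGD* (-0.86), *TALDO1* (-0.73), *ALDOC* (-0.65) and *TPI1* (-0.67) were lower by less than 2-fold and *BNIP3L* (-1.01) by more, and the medians were -0.3 for glycolysis (15 lower, 4 higher), -0.73 for pentose phosphate (2 lower, *TKT* higher) and 0.11 for hypoxia genes. The 3 comparisons share the Mock libraries, so their values are set side by side and no agreement between them is read as a result. Scaled by library size only the split was 18 lower and 12 higher. Of all 16307 tested genes 4489 were then lower and 7782 higher. With the GC and length trends removed 5207 of all 13569 tested genes were lower and 5259 higher. As fitted, 18 were lower and 4 higher of the 27 genes with certain counting.

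**Figure D1:**
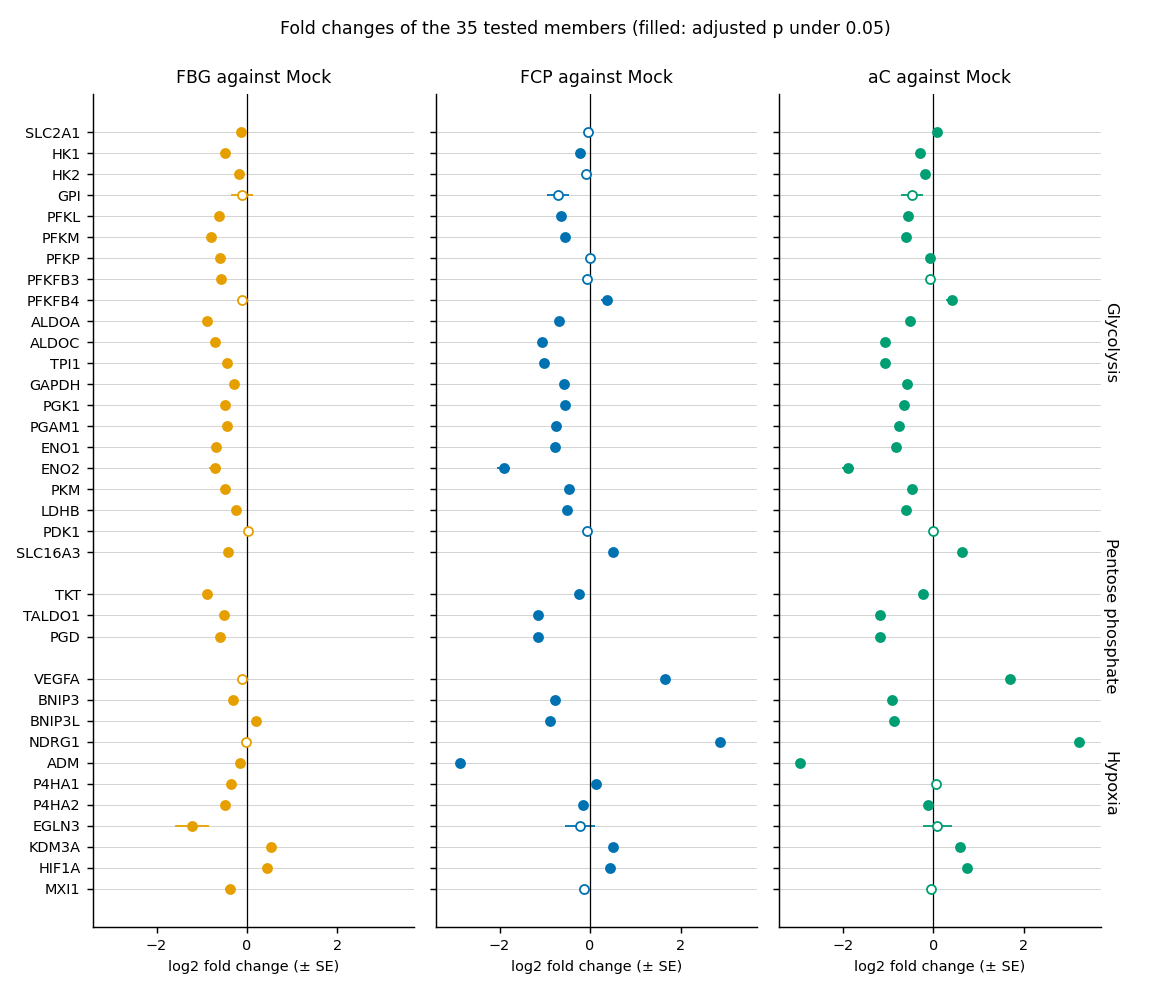
Log2 fold change (± SE) of each of the 35 tested genes, by branch, in FBG, FCP and aC against Mock, 2 libraries a group; filled points had an adjusted p under 0.05. Glycolysis and pentose phosphate genes lie mostly left of 0 in all 3 panels, and the hypoxia genes spread from -2.94 (*ADM*) to 3.23 (*NDRG1*) in aC.

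The genes for glucose entry did not move together. *SLC2A1*, the main glucose transporter gene of most cultured cells, was at 104 and 111 CPM in FBG, 115 and 114 in FCP, 125 and 125 in aC and 117 and 118 in Mock. Its libraries in FBG lay below and those in aC above all Mock libraries, by log2 fold changes of -0.13 ± 0.034 and 0.09 ± 0.033 (adjusted p = 0.0033 and 0.017), while the FCP value of -0.04 ± 0.033 was not called (adjusted p = 0.337). These small values depended on the processing: with GC and length trends removed they were 0.06 in FBG (not called), 0.21 in FCP (called) and 0.33 in aC. The aC call was also lost by DESeq2 and without any 1 of the 4 libraries (adjusted p = 0.0524 to 0.167, edgeR), and the FBG call by library size only (-0.014) and without FBG replicate 1 (-0.08). The hexokinases, which phosphorylate glucose on entry, were both lower in FBG, *HK1* by -0.48 ± 0.029 and *HK2* by -0.17 ± 0.044. *HK1* was also lower in FCP, by -0.23 ± 0.027, and in aC, by -0.3 ± 0.027. By library size only its FCP value was -0.011 and not called. With GC and length trends removed *HK1* was at -0.065 in FCP and -0.14 in aC, both called. *HK2*, the more inducible form, had 59.8 and 60.4 CPM in FBG, 62.9 and 65 in FCP, 60.8 and 58.2 in aC and 67.6 and 68 in Mock. All 6 exposed libraries lay under the Mock libraries, with the FCP difference of -0.08 ± 0.042 not called (adjusted p = 0.0795). By library size only the *HK2* value was -0.059 in FBG and not called, and turned to 0.14 in FCP and 0.04 in aC. Removal of the GC and length trends gave -0.21 in FCP, which was called. *HK1* was the more abundant hexokinase per kilobase in every group, by a ratio of 6.12 and 6.51 in FBG, 7.2 and 6.95 in FCP, 7.19 and 7.3 in aC, and 7.79 and 7.89 in Mock.

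The phosphofructokinases, which commit hexose phosphate to glycolysis, differed by isoform. In FBG the liver, muscle and platelet forms were all lower, *PFKL* by -0.62 ± 0.03, *PFKM* by -0.79 ± 0.042 and *PFKP* by -0.6 ± 0.02. In FCP *PFKL* (-0.65 ± 0.029) and *PFKM* (-0.57 ± 0.04) were lower, while *PFKP*, the most abundant of the 3 per kilobase in every group, was at -0.01 ± 0.018 and not called (adjusted p = 0.667). *PFKP* had 247 and 251 CPM in FBG, 378 and 374 in FCP, 361 and 361 in aC and 380 and 376 in Mock. The test of FCP against FBG gave 0.59 ± 0.019 for *PFKP* (adjusted p = 1.76e-17), 0.22 ± 0.042 for *PFKM* and -0.03 ± 0.03 for *PFKL*, the last not called. The *PFKL* to *PFKP* ratio per kilobase was 0.422 and 0.425 in FBG, 0.276 and 0.275 in FCP, 0.311 and 0.306 in aC, and 0.425 and 0.435 in Mock. In aC *PFKP* was called lower by -0.07 ± 0.018. Other settings turned the sign of *PFKP* against Mock, to 0.21 in FCP and 0.16 in aC by library size only, and to 0.24 and 0.16 with GC and length trends removed.

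*PFKFB3* and *PFKFB4* make fructose 2,6-bisphosphate, which activates phosphofructokinase. *PFKFB3* was lower in FBG, by -0.57 ± 0.05, and was not called in FCP (-0.08 ± 0.047) or aC (-0.08 ± 0.047). *PFKFB4* was not called in FBG (-0.11 ± 0.12) and was higher in FCP by 0.37 ± 0.11 and in aC by 0.41 ± 0.11, calls that DESeq2 did not make. Without FCP replicate 2 the FCP value fell to 0.28. *GPI*, the glucose 6-phosphate isomerase gene, was not called in any comparison as fitted, with standard errors of 0.24 to 0.25. With the counts of its alternate-locus entries added it was called lower in FCP (-0.71) and aC (-0.56) against Mock and in FCP (-0.69) and aC (-0.54) against FBG. DESeq2 also called it in FCP against Mock (-0.74) and against FBG (-0.59), and the fit with a replicate block in FCP against Mock (-0.7). Its counts differed between the libraries of a pair, at 888 and 1159 in FBG, 1103 and 971 in FCP, 1087 and 1471 in aC and 986 and 1249 in Mock.

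From aldolase to pyruvate kinase every tested gene was lower in each exposed group. *TPI1*, which interconverts the triose phosphates, showed it most clearly among the abundant genes, with 853 and 861 CPM in FBG, 575 and 567 in FCP, 565 and 541 in aC and 1154 and 1165 in Mock. No exposed library reached a Mock library, and FCP and aC lay under FBG, with log2 fold changes of -0.44 ± 0.017 in FBG, -1.02 ± 0.017 in FCP and -1.07 ± 0.017 in aC against Mock (adjusted p = 4.57e-15, 1.82e-22 and 7.36e-23). FCP against FBG was -0.59 ± 0.018 (adjusted p = 1.07e-17). *ENO1*, the main enolase gene, had 2255 and 2253 CPM in FBG, 2129 and 2116 in FCP, 2066 and 2046 in aC and 3657 and 3623 in Mock, so that all exposed groups lay close together and under Mock. Its changes against Mock were -0.69 ± 0.0096, -0.78 ± 0.0071 and -0.82 ± 0.0071. *ENO2*, the neuronal enolase gene, whose counts are uncertain, had 11.9 and 12.1 CPM in FBG, 5.68 and 4.71 in FCP, 5.67 and 4.95 in aC and 21.6 and 17.6 in Mock. Its falls of -1.91 ± 0.13 in FCP and -1.88 ± 0.13 in aC were the largest among the glycolysis genes there, and that in FBG was -0.71 ± 0.13.

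The aldolase genes, which cleave fructose bisphosphate, fell in a different order. *ALDOC* had 48.3 and 49.9 CPM in FBG, 39.2 and 37.1 in FCP, 39.5 and 36.6 in aC and 80.4 and 79.2 in Mock, lower by -0.7 ± 0.051, -1.06 ± 0.051 and -1.07 ± 0.051. *ALDOA* had 30 and 29.3 in FBG, 36 and 32.1 in FCP, 38 and 39.1 in aC and 53.3 and 56 in Mock, with its largest fall in FBG (-0.88 ± 0.063, against -0.68 ± 0.061 in FCP and -0.5 ± 0.06 in aC). *ALDOC* was the higher of the pair per kilobase in every library, which for *ALDOA* is a level over 65.1% shared exon bases and so not its true abundance. *GAPDH* was lower by -0.29 ± 0.0078 in FBG, -0.57 ± 0.0062 in FCP and -0.58 ± 0.0061 in aC. With GC and length trends removed its values shrank to -0.02, -0.11 and -0.16. *PGK1*, which makes the first ATP of the pathway, fell by 0.5, 0.56 and 0.65 in the same order (SE 0.018 to 0.019), *PGAM1* by 0.44, 0.75 and 0.77, and the pyruvate kinase gene *PKM* by 0.5, 0.46 and 0.46.

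Genes acting on pyruvate and lactate did not share a direction. *LDHB*, the lactate dehydrogenase subunit that favours pyruvate formation, was lower by -0.25 ± 0.015 in FBG, -0.51 ± 0.015 in FCP and -0.6 ± 0.015 in aC, or -0.14, -0.12 and -0.17 with GC and length trends removed. *SLC16A3*, the lactate exporter MCT4, had 301 and 297 CPM in FBG, 575 and 565 in FCP, 629 and 628 in aC and 394 and 408 in Mock. The groups did not overlap: FBG was lowest, by -0.42 ± 0.021 against Mock, while FCP and aC were higher by 0.51 ± 0.019 and 0.65 ± 0.018 (adjusted p = 8.78e-17 and 7.08e-19). aC was also above FCP, by 0.14 ± 0.017 (adjusted p = 4.4e-06). *PDK1*, a kinase that blocks entry of pyruvate into mitochondria, had 18.7 and 16.6 CPM in FBG, 16.6 and 16.5 in FCP, 17.3 and 17.5 in aC and 17.1 and 17.9 in Mock. Its groups overlapped and no comparison called it, with log2 fold changes against Mock of 0.01 ± 0.088 in FBG, -0.08 ± 0.086 in FCP and -0.0033 ± 0.086 in aC. With GC and length trends removed, for a gene model of 20258 exon bases, the values were -0.32, -0.59 and -0.5, all called.

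**Figure D2:**
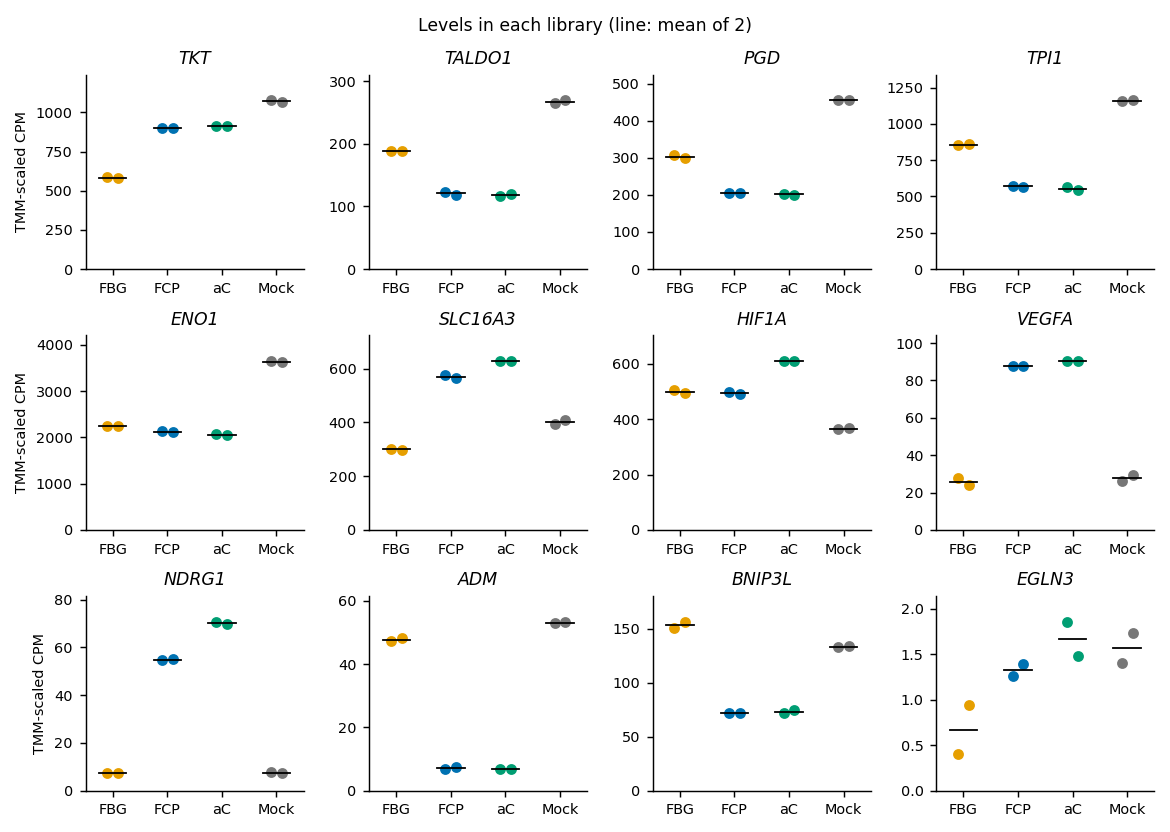
Level in TMM-scaled CPM of 12 genes in each of the 8 libraries (points) with the mean of the 2 libraries of a group (line), each panel from 0. *TKT* is lowest in FBG, at 588 and 579 CPM, *TALDO1* and *PGD* are lowest in FCP and aC, *SLC16A3* separates all 4 groups, and *ADM* and *NDRG1* divide FCP and aC from FBG and Mock in opposite directions.

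The pentose phosphate genes split into 2 patterns. *PGD*, which carries out an NADPH-yielding step of the oxidative arm, had 306 and 300 CPM in FBG, 204 and 204 in FCP, 204 and 200 in aC and 454 and 456 in Mock. *TALDO1*, the transaldolase gene, had 189 and 189 in FBG, 123 and 118 in FCP, 117 and 120 in aC and 265 and 270 in Mock. For both, Mock was highest and FCP and aC lowest: *PGD* was at 0.666 times its Mock level in FBG, 0.449 in FCP and 0.443 in aC, and *TALDO1* at 0.706, 0.452 and 0.442. *TKT*, transketolase, went another way, with 588 and 579 CPM in FBG, 900 and 898 in FCP, 915 and 912 in aC and 1080 and 1064 in Mock. It was at 0.545 times the Mock level in FBG (log2 fold change -0.88 ± 0.016, adjusted p = 2.53e-21), 0.839 in FCP (-0.25 ± 0.014) and 0.852 in aC (-0.23 ± 0.014). Set directly against FBG, *TKT* was higher in FCP by 0.62 ± 0.015 (adjusted p = 1.08e-19), where *PGD* was lower by -0.57 ± 0.021 and *TALDO1* by -0.64 ± 0.028. With GC and length trends removed *TKT* stayed lower in FBG (-0.67) and turned to 0.03 in FCP and 0.04 in aC, both called. By library size only it was at 1.78e-05 in aC and not called.

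Other enzymes of these pathways were counted from a wider list, as fitted only. How their counts depend on the processing was not tested. Of 8 further pentose phosphate genes tested, 7 were lower in FBG, 7 in FCP and 7 in aC, with 1 higher in FCP and 1 in aC, beside 26.3%, 36.1% and 36.7% of all tested genes called lower. *H6PD*, which encodes an NADPH-yielding enzyme of the endoplasmic reticulum, was lower by -0.55 ± 0.041 in FBG. *RPIA*, the ribose phosphate isomerase gene, was lower by -0.99 ± 0.071 in FCP. *RPE*, the ribulose phosphate epimerase gene, was the gene called higher in FCP, by 0.27 ± 0.039. The phosphoribosyl pyrophosphate synthetase gene *PRPS1* fell by 0.43 in FBG and 0.9 in FCP. Of 19 further glycolysis and pyruvate genes 5 were lower and 1 higher in FBG, 8 lower and 2 higher in FCP and 10 lower and 2 higher in aC. In FBG that is the share of all tested genes called lower, 26.3%, and in FCP and aC the shares of all tested genes were 36.1% and 36.7%. *SLC2A3*, a second glucose transporter gene, was lower in FCP by -2.98 ± 0.13, with 2.27 and 2.66 CPM in FCP against 20.1 and 19.1 in Mock. *PDK2*, a relative of *PDK1*, was lower in FCP by -1.16 ± 0.074 and the mitochondrial pyruvate carrier gene *MPC2* by -0.75 ± 0.058, while *PFKFB2* (0.51 ± 0.052) and *PDK3* (0.47 ± 0.075) were higher. In FBG *MPC1*, the partner of *MPC2*, was higher by 0.38 ± 0.11, and the phosphoglucomutase gene *PGM1* (-0.41 ± 0.04), the pyruvate dehydrogenase subunit gene *PDHA1* (-0.18 ± 0.028) and the ADP-dependent glucokinase gene *ADPGK* (-0.17 ± 0.049) were lower.

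**Figure D3:**
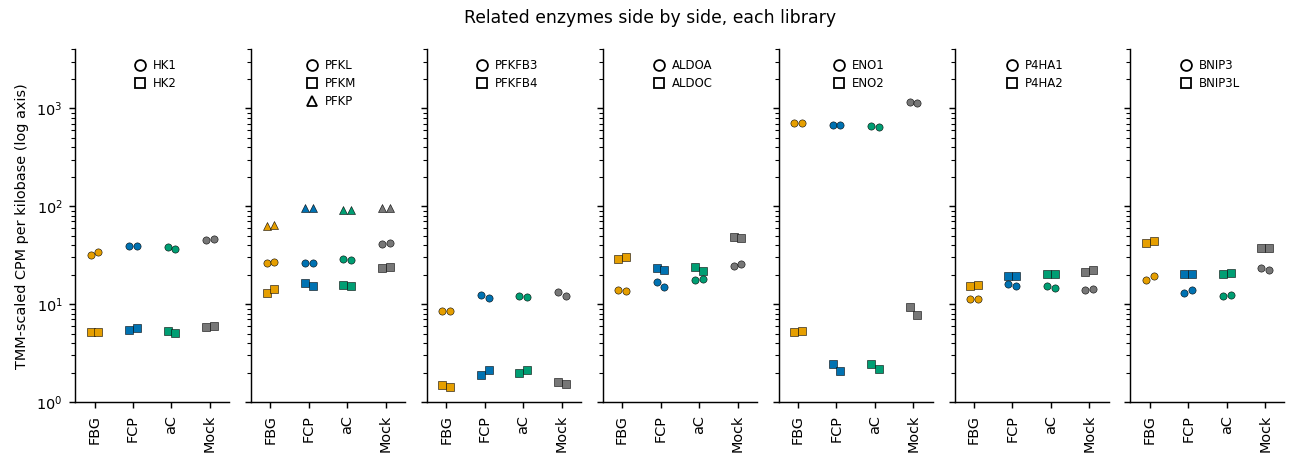
Level of related enzymes in CPM per kilobase of exon (log axis) in each library, for 7 groups of paralogs. *HK1*, *PFKP*, *PFKFB3*, *ALDOC*, *ENO1*, *P4HA2* and *BNIP3L* are the most abundant of their group in all 8 libraries, and *ENO2* lies furthest under its relative, with an *ENO1* to *ENO2* ratio of 138 and 135 in FBG, 272 and 326 in FCP, 265 and 300 in aC and 123 and 149 in Mock.

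Hypoxia genes divided by gene and not as a group. *NDRG1*, a stress-induced gene named for its regulation by N-myc, had 7.28 and 7.34 CPM in FBG, 54.6 and 55.3 in FCP, 70.8 and 69.7 in aC and 7.67 and 7.26 in Mock. The FBG and Mock libraries overlapped (-0.03 ± 0.08, not called), and FCP and aC lay 7.35-fold and 9.4-fold above Mock (log2 fold changes 2.88 ± 0.067 and 3.23 ± 0.067, adjusted p = 1.89e-20 and 1.92e-21). Counting alone gives larger SEs for these values, of 0.14 in FBG, 0.101 in FCP and 0.0996 in aC. aC was above FCP by 0.35 ± 0.054 (adjusted p = 9.81e-05). *VEGFA*, the angiogenic growth factor, had 27.6 and 24.1 CPM in FBG, 87.5 and 87.5 in FCP, 90.5 and 90.3 in aC and 26.4 and 29.2 in Mock. It did not differ detectably in FBG (-0.11 ± 0.063, adjusted p = 0.215) and was 3.14-fold higher in FCP and 3.25-fold higher in aC (adjusted p = 1.02e-16 and 5.77e-17). *VEGFA* lies on chromosome 6, whose genes had a median of 0.48 in both comparisons, beside 1.65 and 1.7 for *VEGFA*. The part of the chromosome in the result was not tested. *ADM*, which encodes the vasodilator peptide adrenomedullin, had 47.2 and 48.2 CPM in FBG, 6.9 and 7.51 in FCP, 6.94 and 6.89 in aC and 52.9 and 53.4 in Mock. It was at 0.136 times the Mock level in FCP and 0.13 in aC (-2.88 ± 0.072 and -2.94 ± 0.072, adjusted p = 6.6e-20 and 4.11e-20), the largest falls of the 35 tested genes in both. It has larger SEs by counting alone, of 0.0872 in FCP and 0.0876 in aC. In FBG it was called at -0.16 ± 0.064 (adjusted p = 0.0446), a call lost by DESeq2, by library size only, with no filter, without any 1 library of the 4, and with GC and length trends removed (0.11).

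The mitophagy receptor genes *BNIP3* and *BNIP3L*, which mark mitochondria for removal, were lower in FCP and aC. *BNIP3L* had 150 and 157 CPM in FBG, 71.9 and 72.4 in FCP, 71.6 and 74.6 in aC and 133 and 134 in Mock, higher in FBG by 0.2 ± 0.033 and lower in FCP by -0.88 ± 0.034 and in aC by -0.87 ± 0.033. The rise in FBG was not called with GC and length trends removed (-0.02). *BNIP3* had 27.4 and 29.6 CPM in FBG, 20.2 and 21.3 in FCP, 18.6 and 19.2 in aC and 36.1 and 34.5 in Mock. It fell in all 3 groups, by 0.31, 0.77 and 0.9 (SE 0.07 to 0.071). After removal of the GC and length trends it was at -0.13 in FBG and not called, and at -0.34 in FCP and -0.48 in aC. The *BNIP3* to *BNIP3L* ratio per kilobase was 0.421 and 0.436 in FBG, 0.648 and 0.679 in FCP, 0.6 and 0.594 in aC, and 0.627 and 0.596 in Mock.

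*HIF1A* and *KDM3A* were higher in all 3 exposed groups. *HIF1A*, which encodes the HIF-1α subunit, had 504 and 494 CPM in FBG, 500 and 491 in FCP, 611 and 610 in aC and 363 and 369 in Mock. FBG and FCP overlapped above Mock, by 0.45 ± 0.019 and 0.44 ± 0.018, and aC was highest, by 0.74 ± 0.018 against Mock and 0.3 ± 0.016 against FCP (adjusted p = 3.2e-20 and 1.16e-11). With GC and length trends removed the values against Mock were 0.14 in FBG, 0.16 in FCP and 0.47 in aC, all called. *KDM3A*, a histone demethylase gene, had 27.7 and 27.2 CPM in FBG, 26.8 and 27.2 in FCP, 30.3 and 27.6 in aC and 17.9 and 20.3 in Mock. Every exposed library lay above the Mock libraries. It rose in all 3 groups, by 0.52 ± 0.077, 0.5 ± 0.076 and 0.6 ± 0.076, or 0.36, 0.26 and 0.4 with GC and length trends removed. *EGLN3*, a prolyl hydroxylase that marks HIF-1α, was close to the limit of detection, with 6 and 14 counts in FBG, 29 and 32 in FCP, 44 and 35 in aC and 21 and 26 in Mock, where 3 counts amount to 0.198 CPM in FBG, 0.138 in FCP, 0.135 in aC and 0.181 in Mock. Its fall in FBG (-1.21 ± 0.38, adjusted p = 0.0102) was not called without FBG replicate 1 (-0.73) or without Mock replicate 2 (-1.05), nor by DESeq2 (-1.25). It was not called in FCP or aC. The collagen prolyl hydroxylase genes *P4HA1* and *P4HA2* were lower in FBG, by -0.35 ± 0.056 and -0.49 ± 0.034. In FCP *P4HA1* was at 0.14 ± 0.054, a call lost without either Mock library (0.11 and 0.14), without FCP replicate 1 (0.12), by DESeq2 (0.12) and with GC and length trends removed (0.11). *P4HA2* was at -0.16 ± 0.033 in FCP, which turned to 0.06 by library size only and 0.03 with GC and length trends removed, neither called. *MXI1*, a MAX-binding antagonist of MYC, was lower in FBG (-0.39 ± 0.091) and not called in FCP (-0.14 ± 0.089) or aC (-0.04 ± 0.088).

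A wider list of hypoxia genes was counted too, again as fitted only, and dependence of its counts on the processing was not tested. Of 38 tested, 21 were lower and 7 higher in FBG, 27 lower and 8 higher in FCP, and 28 lower and 9 higher in aC, with medians of -0.23, -0.47 and -0.54. The shares over all tested genes were 26.3% lower and 24.2% higher for FBG, 36.1% lower and 37.3% higher for FCP, and 36.7% lower and 38% higher for aC, with medians of 0.02, 0.06 and 0.06. In FBG *LOXL2*, a matrix crosslinking oxidase gene, fell by 1.01, *DDIT4*, an inhibitor of mTOR signalling, by 0.69 and the glycogen synthase gene *GYS1* by 0.59, while *RIOK3*, *WSB1* and *CITED2* rose by 0.59, 0.35 and 0.16. In FCP the secreted glycoprotein gene *STC2* was at 115 and 114 CPM against 839 and 843 in Mock (-2.88 ± 0.021), *CITED2*, a competitor of HIF for its coactivator, at 29.9 and 28.3 against 164 and 164 (-2.49 ± 0.037), and *LOXL2* was lower by -1.71 ± 0.028. *WSB1*, the lipase inhibitor gene *ANGPTL4* and the clock-related repressor gene *BHLHE40* were higher, by 0.76 ± 0.049, 0.92 ± 0.061 and 0.47 ± 0.033.

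Promoter sequences are shown for the 2 genes highest and the 2 lowest in FCP against Mock among those matched in the RefSeq promoter table (GRCh38.p14), because HIF binds DNA at short elements built on ACGTG or GCGTG. The table matched 34 of the 38 genes by symbol, without *SLC16A1*, *VEGFA*, *BNIP3L* and *NDRG1*. Shown are the 250 bases before a start site, 5′ to 3′ on the strand of the gene, here the plus strand for all 4, with ACGTG on either strand in capitals. The windows are chr17:82228792-82229041 for *SLC16A3* (1 of its 5 listed starts), chr2:86441121-86441370 for *KDM3A* (1 of 2), chr11:10304823-10305072 for *ADM* and chr12:6914330-6914579 for *ENO2*.
SLC16A3: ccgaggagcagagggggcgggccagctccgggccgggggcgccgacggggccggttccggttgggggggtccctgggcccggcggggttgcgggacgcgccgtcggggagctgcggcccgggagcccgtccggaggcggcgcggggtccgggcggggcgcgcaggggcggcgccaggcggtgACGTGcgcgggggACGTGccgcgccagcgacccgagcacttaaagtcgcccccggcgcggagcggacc
KDM3A: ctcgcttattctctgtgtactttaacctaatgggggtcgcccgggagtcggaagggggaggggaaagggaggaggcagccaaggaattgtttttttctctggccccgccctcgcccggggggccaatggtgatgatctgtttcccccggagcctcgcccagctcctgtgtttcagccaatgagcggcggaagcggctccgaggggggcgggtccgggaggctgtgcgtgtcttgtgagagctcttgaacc
ADM: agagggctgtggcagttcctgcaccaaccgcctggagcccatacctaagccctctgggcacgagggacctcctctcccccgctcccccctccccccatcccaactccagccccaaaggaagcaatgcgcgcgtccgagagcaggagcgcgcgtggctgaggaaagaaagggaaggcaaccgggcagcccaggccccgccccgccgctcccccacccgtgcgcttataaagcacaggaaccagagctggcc
ENO2: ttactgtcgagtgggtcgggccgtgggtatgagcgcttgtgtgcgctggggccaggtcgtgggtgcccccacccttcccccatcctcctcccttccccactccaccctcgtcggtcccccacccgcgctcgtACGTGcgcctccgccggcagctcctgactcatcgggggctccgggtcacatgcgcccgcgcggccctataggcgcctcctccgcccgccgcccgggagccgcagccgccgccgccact
*SLC16A3*, higher in FCP and aC, holds 2 matches to ACGTG in this stretch, and *ENO2*, lower in both, holds 1. Of several listed starts the one with the most ACGTG was shown, and the other *SLC16A3* windows hold no ACGTG. *ENO2* and *ADM* have 1 listed start each, so the numbers of matches cannot be compared between these genes. *KDM3A* and *ADM*, which moved in opposite directions, hold none and 1 GCGTG each. Over windows of 250 bases before to 50 after a start site, counting either strand and allowing the matches of the palindrome CACGTG to overlap, ACGTG occurred in 18 of 48 windows of glycolysis genes (37.5%), 4 of 13 of hypoxia genes (30.8%) and 1 of 3 of pentose phosphate genes (33.3%), beside 21.4% of all 35116 windows. With GCGTG counted too the shares were 64.6%, 69.2% and 33.3%, beside 48.4%. A match is a run of letters and not a measured binding site.

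FCP and aC were also set against FBG, given at the same dose. In FCP 16 genes were higher and 13 lower than in FBG, against 32.6% and 34.2% of all tested genes (66.8% in either direction), and in aC 18 were higher and 13 lower, against 33.8% and 34.5% (68.3%). In FCP DESeq2 did not call *SLC2A1*, *EGLN3* or *MXI1* higher, nor *PGK1* lower, and in aC it did not call *PFKL* or *EGLN3* higher. Single libraries mattered too. In FCP *SLC2A1* went from 0.09 to 0.04 and *EGLN3* from 0.98 to 0.49 without FBG replicate 1, and *ALDOA* from 0.2 to 0.12 without FCP replicate 1. The glycolysis medians were -0.03 and -0.02 and the hypoxia medians 0.25 and 0.34. The genes that differed most were again *NDRG1* (2.91 ± 0.067 and 3.26 ± 0.067), *VEGFA* (1.76 ± 0.057 and 1.81 ± 0.057) and *ADM* (-2.73 ± 0.072 and -2.78 ± 0.072), followed by *ENO2* (-1.21 ± 0.13 and -1.18 ± 0.13) and *BNIP3L* (-1.09 ± 0.033 and -1.07 ± 0.033). *PGK1* (-0.07) and *ENO1* (-0.09) in FCP against FBG turned sign by library size only (0.04 and 0.02) and *LDHB* (-0.26) with GC and length trends removed (0.02), none of these alternatives being called. *PFKL* (-0.03) and *HIF1A* (-0.01), not called as fitted, turned by library size only to 0.08 and 0.1, both called. So did *HK2* in aC against FBG, from -0.02 to 0.1, called.

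aC against FCP showed small differences. In aC 5 genes were higher and 4 lower than in FCP of 35, against 4.57% and 4.45% of all tested genes (9.01% in either direction), and none by 2-fold. The higher ones were *NDRG1* (0.35 ± 0.054), *HIF1A* (0.3 ± 0.016), *SLC16A3* (0.14 ± 0.017), *SLC2A1* (0.13 ± 0.031) and *PFKL* (0.11 ± 0.029), and the lower ones *LDHB* (-0.09 ± 0.015), *PGK1* (-0.08 ± 0.018), *PFKP* (-0.06 ± 0.018) and *ENO1* (-0.05 ± 0.0081). With 1 of the 4 libraries left out in turn, *SLC2A1*, *PFKL*, *PFKP* and *ENO1* were called in none of these 4 fits. *PGK1* was not called without FCP replicate 2, and *NDRG1*, *HIF1A*, *SLC16A3* and *LDHB* were called in all 4. Some calls were new there: *ALDOA* went from 0.18 to 0.26 without FCP replicate 1, and *TPI1* from -0.047 to -0.08 without aC replicate 1. The pentose phosphate genes were not called, at 0.02 ± 0.014 for *TKT*, -0.03 ± 0.028 for *TALDO1* and -0.02 ± 0.021 for *PGD*.

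**Figure D4:**
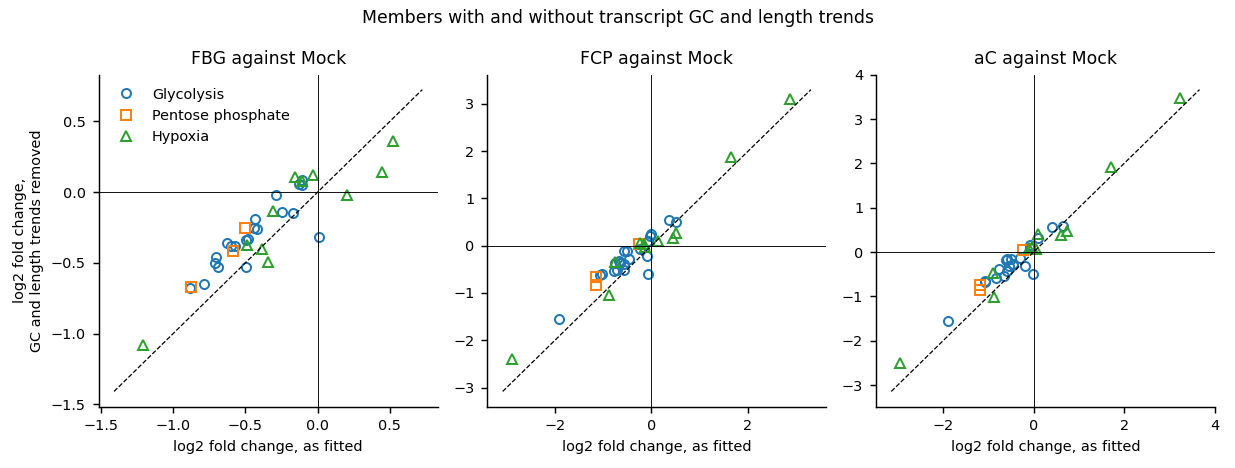
Log2 fold change of the 35 tested genes with trends on transcript GC content and length removed (vertical axis) against the value as fitted (horizontal axis), for FBG, FCP and aC against Mock; the dashed line marks equal values. In FBG most glycolysis genes lie above the line and under 0, with a median of -0.33 after removal and -0.48 before.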

How the data were processed

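RNA of 8 BEAS-2B libraries, 2 in each of 4 groups, was sequenced after mRNA enrichment. The deposited values are raw fragment counts per gene, 1 table a library, made by the authors with featureCounts 1.6.0 over exons, without strand or multi-mapping options, per the file headers. The submitters' processing notes name featureCounts 1.6.2, Trimmomatic 0.39, HISAT2 2.2.1, SAMtools 1.9 and GRCh38.p14. The exon length column of the deposited files (a number of bases) was used only for levels per kilobase.

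Counts of all 8 libraries entered 1 fit in edgeR 4.0.16 (R 4.3.3): filterByExpr by group, which left 16307 of 50006 entries, TMM scaling, the robust quasi-likelihood test and Benjamini-Hochberg adjustment over all genes tested. A call is an adjusted p under 0.05. Values are log2 fold changes ± SE. Levels are TMM-scaled CPM, counts scaled to a common library total. Members and gene lists were chosen with earlier results of these data known. Named members are all 38; genes of the wider lists were named by a rule of up to 3 smallest p-values in each direction for FBG and FCP against Mock. Of these, 1 gene is not reported here. A gene is called uncertain where an entry of it lies on an alternate locus or at least 10% of its exon bases are shared.

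Alternatives were library-size scaling, no filter, spline trends on GC content and length removed (GENCODE transcripts, 83.21% of tested genes), a replicate block, only the libraries compared, alternate-locus counts added, DESeq2 1.42.0, and leaving out each library. The code was tested on simulated data. Depth limits low genes: in 1 library 3 counts amount to 0.135 to 0.198 CPM.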

Additional observations from a re-analysis of the deposited data

How the results depend on the processing

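Counts of genes called follow, out of 35 tested unless another number is given. By library size only FCP against Mock had 11 higher and aC against Mock 12 higher, and aC against FCP had 2 lower. Of all 16307 tested genes 7679 and 7782 were then higher in FCP and aC against Mock, and 574 lower in aC against FCP. With the uncertain genes left out, an alternative chosen after seeing the data, 27 genes remained. Of these 4 were higher and 16 lower in FCP against Mock, beside 37.3% and 36.1% of all tested genes. In aC against Mock 4 were higher and 18 lower, beside 38% and 36.7%. In aC against FCP 3 were higher and 4 lower, beside 4.57% and 4.45%. DESeq2 called 3 higher in aC against FCP, beside 426 of 9277 genes over all. Leaving out 1 library gave 3 to 3 higher and 24 to 26 lower in FBG against Mock, 6 to 6 and 20 to 21 in FCP against Mock, 6 to 6 and 22 to 23 in aC against Mock, 12 to 13 and 12 to 13 in FCP against FBG, 15 to 18 and 13 to 13 in aC against FBG, and 3 to 4 and 1 to 3 in aC against FCP. The replicate block gave 3 higher and 27 lower in FBG against Mock, 7 and 21 in FCP, 7 and 22 in aC. Correlations of the replicate differences between groups ran from -0.028 to 0.057. No shared effect of the replicate number was seen, and whether libraries of equal number were paired cannot be told from this.

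Single genes whose sign turned, with a call as fitted or in the alternative, follow as log2 fold changes. The cause was not tested. Further genes turned sign without a call in either fit and are not listed, such as VEGFA in FBG against Mock (-0.11, and 0.078 with GC content and length trends removed). With GC content and length trends removed, the values in FBG against Mock were 0.059 for SLC2A1 (0.058 with the replicate block added), -0.32 for PDK1, -0.023 for BNIP3L and 0.11 for ADM. In FCP against Mock they were 0.21 (SLC2A1), 0.24 (PFKP), 0.11 (PFKFB3), 0.027 (TKT) and 0.0285 (P4HA2), in aC against Mock 0.16 (PFKP), 0.0377 (TKT) and 0.10 (P4HA2), and in FCP against FBG 0.0243 (PGK1) and 0.0226 (LDHB). Adding the replicate block left each of these others the same to the digits given. By library size only they were 0.19 (SLC2A1), 0.14 (HK2), 0.21 (PFKP), 0.15 (PFKFB3) and 0.061 (P4HA2) in FCP against Mock, 0.042 (HK2), 0.16 (PFKP), 0.15 (PFKFB3), 0.23 (PDK1), 1.78e-05 (TKT) and 0.12 (P4HA2) in aC against Mock, 0.079 (PFKL), 0.038 (PGK1), 0.021 (ENO1) and 0.10 (HIF1A) in FCP against FBG, and 0.10 (HK2) in aC against FBG. Small fold changes of low genes such as EGLN3 are limited by depth.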
